A study of Homo sapiens with 12 samples.

Results

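The genes described here encode the nucleoporins, which build the nuclear pore complex, and the receptors that carry cargo through it. Members were the symbols of the count table that follow the naming patterns NUP with a number, KPNA, KPNB1, IPO with a number, XPO with a number, XPOT and TNPO with a number, together with CSE1L, RANBP2 and TPR and without pseudogenes. There were 49 members among 59050 symbols, 24 of them nucleoporins and 25 transport receptors. Neural progenitor cells (NPC) were set against the human embryonic stem cell line HUES8 (ESC) from which they were made, both labelled wild type. The NPC were made by 7 days of dual SMAD inhibition with 2.5 uM SB431542, which blocks the receptors of Nodal and activin, and 0.05 uM LDN193189, which blocks those of BMP, and SB431542 was left out for the last 2 days. The ESC were kept in mTeSR1 medium on Matrigel. Total RNA depleted of rRNA and ribosome-bound RNA were each sequenced in 3 libraries per state, 12 libraries in all. All libraries stem from 1 cell line, and the labels do not say whether replicates were separate cultures, so p-values measure only the spread between these libraries, which may be technical.

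The nuclear pore complex is a ring-shaped channel through the nuclear envelope. Y complexes form its outer rings, an inner ring holds the channel open, and nucleoporins rich in phenylalanine and glycine repeats fill the channel and bind the receptors. Importins of the beta family bring cargo into the nucleus, either directly or through an importin alpha that reads the classical nuclear localization signal, and exportins carry cargo out. The direction is set by the small GTPase RAN, which releases import cargo and loads export cargo in the nucleus. In mouse cells, importin alpha subtypes switch during neural differentiation of embryonic stem cells, the Y complex protein NUP133 is needed for neural differentiation, and NUP210 is known from work on neural and muscle differentiation.

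Libraries held 19529738 to 35117370 counts for RNA and 2422756 to 4451196 counts for ribosome-bound RNA, so that ribosome-bound values are the less precise. Levels are given as CPM, counts relative to the library's total, scaled by TMM factors within an assay. Each library's values add to a fixed total, so levels are relative, and in these bulk samples fewer cells of a type and less RNA per cell cannot be told apart. Summed over 6 stem cell markers, RNA was 572 to 591 CPM in NPC, against 5495 to 6581 CPM in ESC, and all 6 were lower in NPC in both assays. Summed over 6 neural progenitor markers, RNA was 986 to 1036 CPM in NPC, against 486 to 549 CPM in ESC, with 5 of 6 higher. Neural crest markers also stood higher in NPC, with a sum over 5 genes of 177 to 178 CPM, against 8.43 to 17.9 CPM in ESC (4 higher, and FOXD3 lower). For mesoderm and endoderm markers (6 of 7 in the table), ribosome-bound RNA summed to 2.25 to 4.20 CPM in NPC, against 203 to 258 CPM in ESC. Neuron markers summed to 10.1 to 12.4 CPM of RNA in NPC, against 17.6 to 18.5 CPM in ESC (ELAVL3 and NEUROG2 higher, and 3 lower). Trophoblast markers summed to 6.88 to 7.55 CPM of RNA in NPC, against 7.05 to 12.7 CPM in ESC (GATA3 higher, and KRT7 lower). None of the markers named for these lists was at 0 in all libraries of a state except NEUROG2 (neuron list) and CGA (trophoblast list), both at 0 in ESC. Among 8 genes of the G2 and M phases, ribosome-bound RNA summed to 2262 to 2416 CPM in NPC, against 1141 to 1928 CPM in ESC, with 3 higher and 4 lower, while the RNA sums overlapped (1250 to 1305 CPM in NPC and 1268 to 1576 CPM in ESC). The part of cell composition and of cycling in the results was not tested.

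A pair of ESC libraries stood apart from the others. RNA_ESC replicate 3 correlated with the other RNA_ESC libraries at r = 0.973 and 0.967 across genes, against 0.995 between those, and the members' levels in it lay at a median of 0.32 log2 units above those. RIBO_ESC replicate 2 correlated with its fellows at 0.916 and 0.934, against 0.981 between those, and 40 of 46 members were below their mean level in the other RIBO_ESC libraries, at a median of -0.61 log2 units. Calls within an assay that change without its library that stands apart are given beside the gene.

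In total RNA, the members that passed the test were nearly all lower in NPC, by small amounts. Of 47 members that passed the filter on low counts, 1 was higher (KPNA5, against a background of 26.4% of the 18631 genes tested) and 19 were lower (40.4%, against a background of 26.2%), by edgeR's quasi-likelihood test at an adjusted p under 0.05. In either direction the background was 52.6%. Their median log2 fold change of NPC over ESC was -0.30, against 0.03 over all genes tested, and 39 of 47 were below 0. Changes ranged from -0.90 (NUP88) to 0.60 (KPNA5), so none of these 47 changed by as much as 2-fold with all libraries. With 1 library left out, the fall of XPOT reached -1.06. All 3 NPC libraries lay below all 3 ESC libraries for 26 members and above them for 2, where the background was 29.9% below and 32.9% above. Without RNA_ESC replicate 3, 5 members were higher (KPNA5 with IPO5, KPNA1, NUP58 and XPO1) and 29 lower, where the background was 34.9% and 34.7%.

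In ribosome-bound RNA the members spread further and in both directions. Of 46 members tested, 7 were higher (15.2%, against a background of 31.6% of 12250 genes) and 19 were lower (41.3%, against a background of 30.3%), where 61.8% of all genes passed in either direction. Those higher were the channel nucleoporins NUP58 and NUP62, the basket protein TPR, the importin alphas KPNA4 and KPNA5 and the importins IPO7 and IPO8. Of 23 nucleoporins tested 13 were lower (56.5%), and of 23 receptors 6 (26.1%), against the same background of 30.3%. Of 10 nucleoporins with other names, which the naming patterns left out, 3 were lower (30%). The median log2 fold change was -0.40, against -0.01 over all genes tested, and the standard deviation of the members' log2 fold changes was 0.86, against 0.31 in RNA. Groups did not overlap for 14 members below and 9 above, where the background was 32.1% and 35.0%. Without RIBO_ESC replicate 2, 7 members were higher and 28 lower of 46, where the background was 34.8% and 33.3%, and without RIBO_NPC replicate 3, 12 of 45 were lower, where the background was 24.8%.

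**Figure D1:**
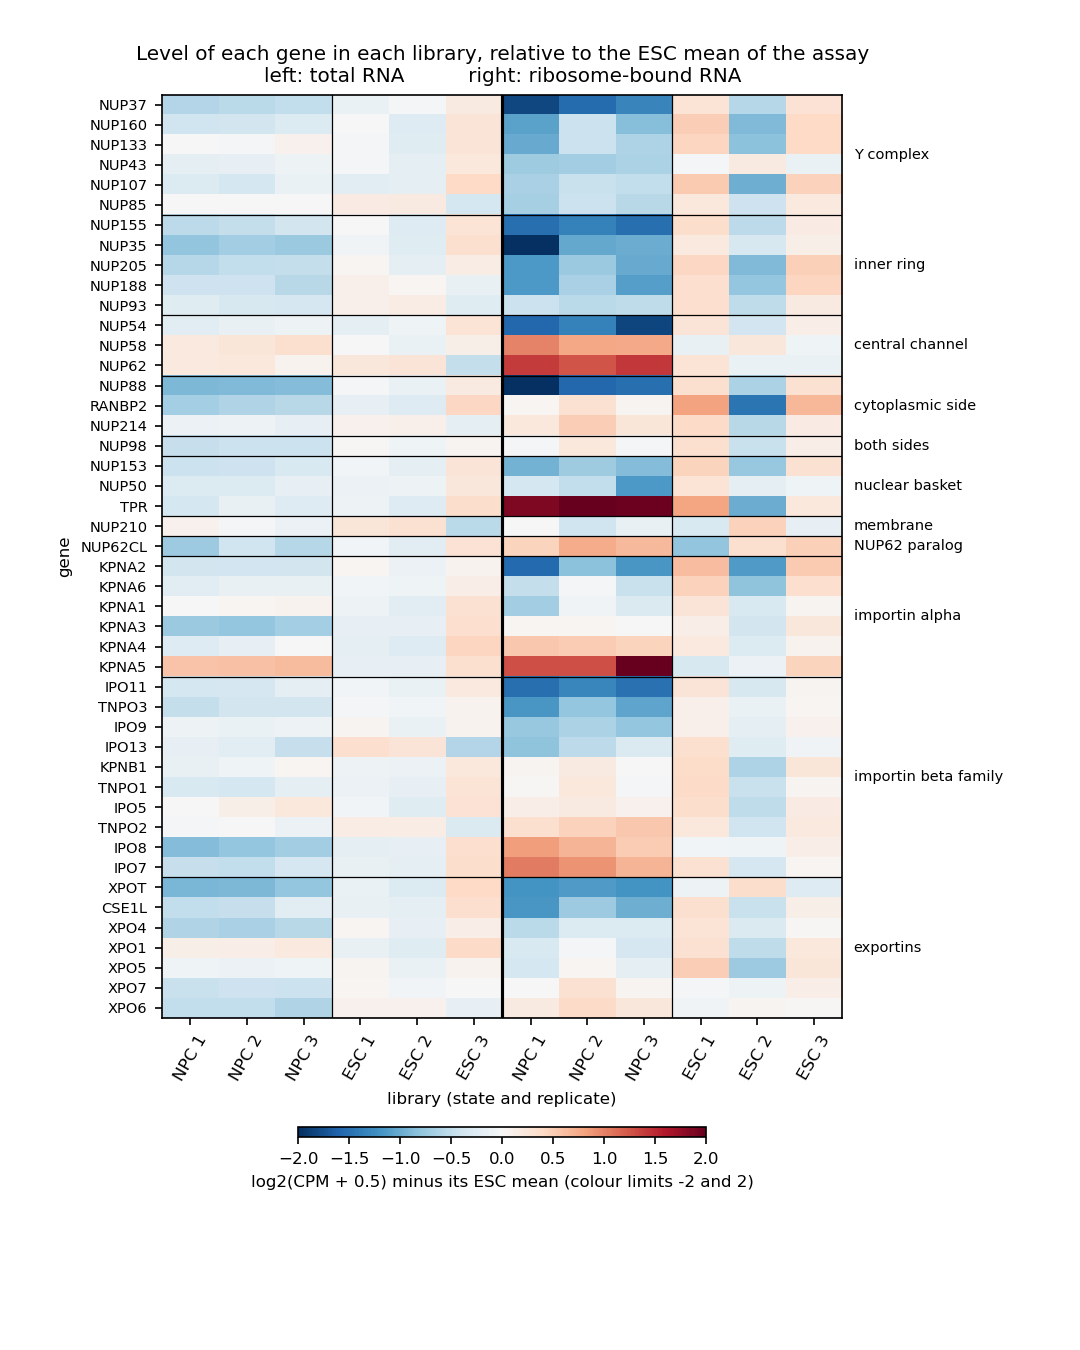
Each row is a member grouped by role and each column a library, with NPC left of ESC for RNA and for ribosome-bound RNA; colour gives log2(CPM + 0.5) of the library minus the mean of the member's 3 ESC libraries in that assay, with limits at -2 and 2. NUP88 and, of the inner ring, NUP155 and NUP35 lie lower in every NPC library than in every ESC library of both assays, TPR and NUP62 are higher in NPC in the ribosome-bound columns, and RIBO_ESC replicate 2 lies below the mean of the other RIBO_ESC libraries for 40 of 46 members.

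All 5 inner ring members lay below 0 in every comparison. The median log2 fold change was -0.47 in RNA, -1.08 in ribosome-bound RNA and -0.64 in the ratio of the 2. In RNA and in ribosome-bound RNA 4 of 5 passed the test in each (NUP155, NUP188, NUP205 and NUP35). That was 80% lower, where the background was 26.2% in RNA and 30.3% in ribosome-bound RNA. NUP155 links the ring to the membrane. Its RNA was 216, 222 and 239 CPM in NPC, against 307, 259 and 374 CPM in ESC (log2 fold change -0.47 ± 0.14 SE, adjusted p = 0.0204). The groups did not overlap, but the adjusted p was 0.0813 without RNA_NPC replicate 1 and 0.0777 without RNA_NPC replicate 2. In ribosome-bound RNA, NUP155 had 62.9, 70.2 and 63.1 CPM in NPC, against 230, 126 and 202 CPM in ESC, a level 2.84-fold lower (log2 fold change -1.51 ± 0.24 SE, adjusted p = 0.000192). No NPC library reached the lowest ESC library, which was RIBO_ESC replicate 2.

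NUP35, a small inner ring protein that binds NUP155 and the membrane, had 18.7, 20.0 and 19.3 CPM of RNA in NPC, against 31.1, 27.4 and 40.6 CPM in ESC (log2 fold change -0.77 ± 0.16 SE, adjusted p = 0.00476). Its ribosome-bound level was 3.87, 10.7 and 10.9 CPM in NPC, against 25.5, 17.8 and 24.3 CPM in ESC (-1.38 ± 0.34 SE, adjusted p = 0.00373). The groups were apart in both assays. NUP205 and NUP188, the large scaffold proteins of the ring, were lower in RNA by 0.52 and 0.47 log2 units (adjusted p = 0.00359 and 0.00484). In ribosome-bound RNA they were lower by 1.08 and 1.05 log2 units (adjusted p = 0.0102 and 0.00848), with RIBO_ESC replicate 2 inside the range of the NPC libraries. The ribosome-bound call was lost without RIBO_NPC replicate 3 (adjusted p = 0.051 for NUP205 and 0.0524 for NUP188), and for NUP205 also without RIBO_NPC replicate 1 (adjusted p = 0.0555). NUP93, which anchors the channel trimer to the ring, did not pass in RNA (-0.31, adjusted p = 0.0573) or in ribosome-bound RNA (-0.54, adjusted p = 0.0687). It was lower and passed in RNA without RNA_ESC replicate 3 (-0.42, adjusted p = 3.93e-08), by DESeq2, with RLE scaling and with the replicate block (adjusted p between 0.0341 and 0.0481), and in ribosome-bound RNA without RIBO_ESC replicate 2 (-0.77, adjusted p = 5.69e-06), by DESeq2 and with upper-quartile scaling (adjusted p = 0.0414 and 0.0464).

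Of the 6 Y complex members, NUP37 was lower in RNA (16.7%, against a background of 26.2%). In ribosome-bound RNA 5 were lower, all but NUP107 (83.3%, against a background of 30.3%), and all 6 lay below 0 with a median of -0.73. The naming patterns left out Y complex genes with other names, which did not all fall. In ribosome-bound RNA SEH1L was lower (-1.18, adjusted p = 0.000201) and SEC13 did not pass (-0.49, adjusted p = 0.0518). AHCTF1 lay above 0 and did not pass (0.57, adjusted p = 0.0641), with every NPC library above every ESC library. Of the 6 members, the difference between the assays passed its own test for NUP37 alone in the main fit of all libraries (16.7%, against a background of 19.0%). Of those with other names it passed for SEH1L (-0.67, adjusted p = 0.0406) and not for SEC13 (-0.35) or AHCTF1 (0.59). Without RIBO_ESC replicate 2 the difference also passed for NUP85, NUP107, NUP133 and NUP160, where the background was 19.9% lower. Without both ESC libraries that stand apart it passed for all of the other 5 members, with log2 changes between -1.29 and -0.63. The background was then 29.3% lower. NUP43 also passed by DESeq2, by limma-voom, under the 3 other scalings, without RNA_ESC replicate 3 and without RIBO_ESC replicate 3. With all libraries, NUP85 passed by DESeq2 and with RLE and upper-quartile scaling (adjusted p = 0.0214, 0.0421 and 0.0433). NUP133 passed by DESeq2 and with no filter (adjusted p = 0.0478 and 0.031), and also without RNA_ESC replicate 3 (adjusted p = 0.0326). NUP37, a propeller protein of the complex, had 33.4, 34.9 and 35.8 CPM of RNA in NPC, against 46.1, 49.1 and 57.3 CPM in ESC (log2 fold change -0.55 ± 0.12 SE, adjusted p = 0.00565). In ribosome-bound RNA it had 30.0, 36.5 and 42.6 CPM in NPC, against 130, 72.0 and 131 CPM in ESC, a level 3.05-fold lower (-1.61 ± 0.26 SE, adjusted p = 0.00022). No NPC library reached any ESC library in either assay.

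NUP133, at the tip of the stem of the Y, had similar RNA in both states, with 134, 131 and 142 CPM in NPC and 132, 113 and 160 CPM in ESC (log2 fold change 0.00 ± 0.13 SE, adjusted p = 0.994). The ribosome-bound values were 35.5, 53.3 and 46.9 CPM in NPC, against 96.8, 40.3 and 95.2 CPM in ESC (-0.78 ± 0.30 SE, adjusted p = 0.0412). RIBO_ESC replicate 2 fell among the NPC libraries, and without it the log2 fold change was -1.09. The call was lost when any other ribosome-bound library was left out, with adjusted p between 0.0641 and 0.168. NUP160, NUP85 and NUP43 were lower by 0.88, 0.58 and 0.69 log2 units in ribosome-bound RNA (adjusted p = 0.0318, 0.0327 and 0.00681), and only NUP43 kept its call in every alternative. NUP107 did not pass (-0.68, adjusted p = 0.0838), but was -1.03 and passed without RIBO_ESC replicate 2 (adjusted p = 2.89e-08), and passed with no filter on low counts (adjusted p = 0.0122). In RNA, NUP160 and NUP85 passed without RNA_ESC replicate 3, at -0.22 and -0.17, and NUP160 also without RNA_ESC replicate 2, at -0.51.

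NUP98 encodes a precursor that is cut into the repeat protein NUP98 and the Y complex protein NUP96. Its RNA was 272, 278 and 279 CPM in NPC, against 384, 353 and 391 CPM in ESC (log2 fold change -0.44 ± 0.08 SE, adjusted p = 0.00282), with no overlap. Its ribosome-bound RNA overlapped, with 127, 151 and 128 CPM in NPC and 163, 96.3 and 144 CPM in ESC (0.01 ± 0.22 SE, adjusted p = 0.981).

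NUP35, NUP37, NUP98 and NUP205, with the importin alpha KPNA2, were the members whose promoter held both CCAAT, the core of the site of the factor NF-Y, and the CHR letters TTTGAA or TTTCGAA, known as a pair from promoters of cell cycle genes. The search read both strands of 250 bases before a RefSeq start (GRCh38.p14), which were at hand for 43 of 49 members. For NUP35 and NUP98 these bases did not begin at the outer end of the gene's span. Those of NUP35 lay inside its span (chromosome 2, 183117514 to 183161680), and those of NUP98 overlapped the end of its span (3797554). Matches of the 2 motifs did not overlap in the promoters shown. The sequences are shown because all 5 genes were lower in RNA in NPC, a pattern chosen after their values were seen. They lie at KPNA2 chr17:68035485-68035734 on the plus strand, NUP35 chr2:183124193-183124442 on the plus strand, NUP37 chr12:102120115-102120364 on the minus strand, NUP98 chr11:3797547-3797796 on the minus strand, NUP205 chr7:135557667-135557916 on the plus strand. Each is written 5′ to 3′ towards the gene, with CCAAT and the CHR letters on either strand in capitals.
KPNA2: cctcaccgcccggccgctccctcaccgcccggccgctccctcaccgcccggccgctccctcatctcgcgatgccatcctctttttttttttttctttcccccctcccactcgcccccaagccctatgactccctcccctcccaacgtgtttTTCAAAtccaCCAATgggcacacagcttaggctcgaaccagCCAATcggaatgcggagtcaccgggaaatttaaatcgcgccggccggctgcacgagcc
NUP35: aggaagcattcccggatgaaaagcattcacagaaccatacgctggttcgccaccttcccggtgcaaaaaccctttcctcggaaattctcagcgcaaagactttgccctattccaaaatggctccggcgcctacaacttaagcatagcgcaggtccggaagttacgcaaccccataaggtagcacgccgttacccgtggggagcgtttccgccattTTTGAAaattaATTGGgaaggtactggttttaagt
NUP37: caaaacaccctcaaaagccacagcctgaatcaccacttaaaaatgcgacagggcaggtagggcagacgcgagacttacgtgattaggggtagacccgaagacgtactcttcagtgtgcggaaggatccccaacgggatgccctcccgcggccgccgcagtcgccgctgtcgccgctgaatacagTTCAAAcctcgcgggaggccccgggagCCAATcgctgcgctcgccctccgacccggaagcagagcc
NUP98: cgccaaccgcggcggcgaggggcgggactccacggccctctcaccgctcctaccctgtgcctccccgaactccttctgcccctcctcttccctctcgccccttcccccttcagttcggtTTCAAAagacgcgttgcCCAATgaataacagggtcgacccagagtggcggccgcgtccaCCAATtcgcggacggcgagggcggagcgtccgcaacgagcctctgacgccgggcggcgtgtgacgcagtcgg
NUP205: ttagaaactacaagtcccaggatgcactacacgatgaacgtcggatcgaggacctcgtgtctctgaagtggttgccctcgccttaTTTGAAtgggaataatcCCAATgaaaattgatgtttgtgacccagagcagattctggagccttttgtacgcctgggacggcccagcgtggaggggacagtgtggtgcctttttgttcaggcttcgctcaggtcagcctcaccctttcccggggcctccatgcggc
Both motifs stood in 11.6% of the members' promoters and in 5.02% of all 27305 promoters of the same length. CCAAT alone stood in 48.8% of the members' promoters and 33.0% of all, and the CHR letters in 18.6% and 14.0%. Over the genes tested in RNA whose promoter was at hand, a part of the 18631, falls were not more frequent beside the pair. Of 430 genes with both motifs 24.2% were lower in NPC, against 28.2% of 11493 genes without the pair. A match of letters is a description and not a binding site.

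The channel trimer, in which NUP54, NUP58 and NUP62 fill the pore with repeats, went in opposite directions in ribosome-bound RNA. None of the 3 passed in RNA. NUP62 had 95.9, 97.3 and 88.1 CPM of RNA in NPC and 97.6, 99.9 and 59.9 CPM in ESC (log2 fold change 0.13 ± 0.19 SE, adjusted p = 0.6). In the ribosome-bound libraries it had 125, 113 and 125 CPM in NPC, against 56.6, 42.5 and 42.6 CPM in ESC, a 2.56-fold higher level (1.35 ± 0.20 SE, adjusted p = 0.000107). Every NPC library was well above every ESC library. The span of NUP62 (GRCh38.p14, chromosome 19, 49906825 to 49929504) lies inside that of IL4I1, which had 88 RNA counts over all libraries. It also shares 599 bases with that of ATF5, which had 2684 RNA counts, against 14577 for NUP62. No source says whether reads were counted by strand, and the part of the overlaps in the NUP62 values was not tested.

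NUP54 had 65.4, 68.3 and 70.2 CPM of RNA in NPC and 65.7, 71.4 and 91.3 CPM in ESC (log2 fold change -0.16 ± 0.14 SE, adjusted p = 0.348). Its ribosome-bound level was 45.2, 52.8 and 37.6 CPM in NPC, against 162, 104 and 148 CPM in ESC, a level 3.06-fold lower (-1.62 ± 0.23 SE, adjusted p = 8.54e-05). The RNA groups overlapped and the ribosome-bound groups were far apart. NUP58, the remaining protein of the trimer, was higher in ribosome-bound RNA by 0.85 log2 units (adjusted p = 0.00253), with 66.8 to 78.4 CPM in NPC and 35.5 to 46.0 CPM in ESC. Its RNA passed without RNA_ESC replicate 3 (0.32, adjusted p = 4.67e-05) and with library totals only (adjusted p = 0.0429).

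**Figure D2:**
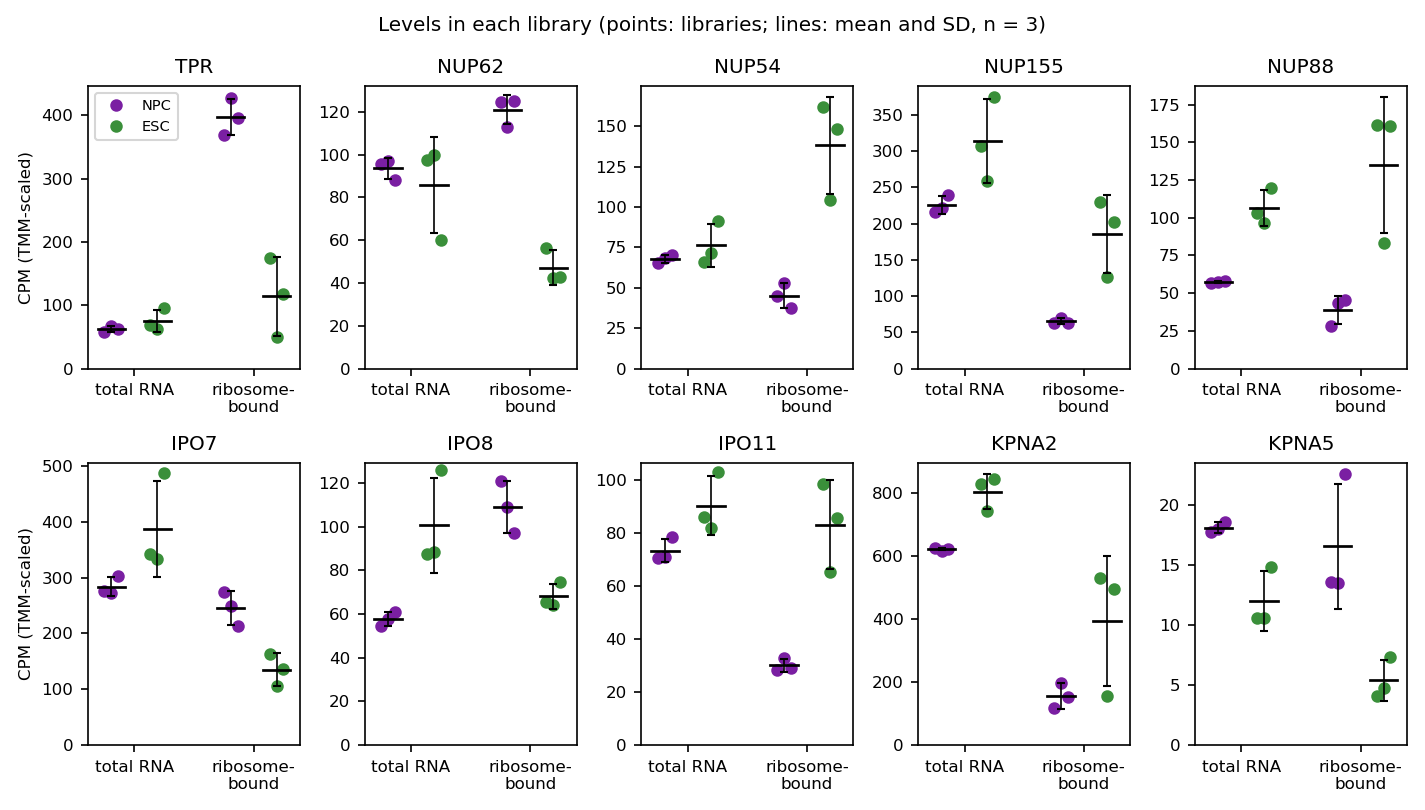
TMM-scaled CPM (linear axis from 0) of 10 members, each with its own axis, in total RNA and ribosome-bound RNA with NPC left of ESC; points are the 3 libraries of a group and lines their mean and SD. In ribosome-bound RNA TPR reaches 369 to 427 CPM in NPC against 50.3 to 175 CPM in ESC, IPO7 and IPO8 stand above ESC after standing below it in total RNA, and NUP54 and IPO11 stand below ESC.

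On the cytoplasmic side, NUP88, which holds NUP214 and the mRNA export platform at the pore, had the largest fall of all members in both assays. Its RNA was 56.5, 57.2 and 58.1 CPM in NPC, against 103, 96.6 and 120 CPM in ESC, a level 1.86-fold lower (log2 fold change -0.90 ± 0.11 SE, adjusted p = 0.000316). Ribosome-bound levels were 28.4, 43.2 and 45.3 CPM in NPC, against 161, 83.3 and 161 CPM in ESC, a level 3.46-fold lower (-1.79 ± 0.28 SE, adjusted p = 0.000202). NPC libraries were below ESC libraries throughout. The NUP88 span (chromosome 17, 5384833 to 5419662) shares 1508 bases with that of RABEP1, which had 7931 RNA counts, against 12292 for NUP88.

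RANBP2, the giant filament protein that binds RAN and acts as a SUMO ligase, had 121, 128 and 133 CPM of RNA in NPC, against 174, 163 and 259 CPM in ESC (log2 fold change -0.64 ± 0.17 SE, adjusted p = 0.0153). The fall was -0.40 without RNA_ESC replicate 3, and the adjusted p was 0.0612 without RNA_NPC replicate 1 and 0.0549 without RNA_NPC replicate 2. In ribosome-bound RNA it had 71.0, 85.9 and 72.2 CPM in NPC and 122, 24.7 and 110 CPM in ESC (-0.17 ± 0.41 SE, adjusted p = 0.738). The ESC libraries lay on both sides of the NPC libraries, and without RIBO_ESC replicate 2 the log2 fold change was -0.61 and passed the test. The 7 RGPD copies of RANBP2 held 8.98% as many RNA counts as RANBP2 itself, and reads could be split among them. RGPD2 had 198, 315 and 297 raw RNA counts in NPC, against 87, 82 and 100 in ESC. RGPD8 had 201, 254 and 246 in NPC, against 67, 104 and 110 in ESC. These counts are not scaled for depth, which was greater in the NPC libraries. The part of the copies in the RANBP2 fall was not tested. NUP214 did not pass in either assay (-0.13 in RNA and 0.26 in ribosome-bound RNA), though its RNA was -0.22 and passed without RNA_ESC replicate 3 (adjusted p = 0.00183).

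In the nuclear basket, TPR, the filament protein that forms its struts, parted from NUP153 and NUP50. TPR (chromosome 1, 186311652 to 186375253) had 58.3, 66.6 and 62.2 CPM of RNA in NPC and 69.3, 62.0 and 95.1 CPM in ESC (log2 fold change -0.27 ± 0.17 SE, adjusted p = 0.199). Its ribosome-bound RNA was 369, 427 and 395 CPM in NPC, against 175, 50.3 and 117 CPM in ESC, a 3.47-fold higher level and the largest rise among members (1.79 ± 0.35 SE, adjusted p = 0.000909). All NPC libraries exceeded the highest ESC library, and without RIBO_ESC replicate 2 the log2 fold change was 1.43.

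NUP153, which docks the basket and binds importins, had 205, 207 and 225 CPM of RNA in NPC, against 266, 242 and 329 CPM in ESC (log2 fold change -0.39 ± 0.13 SE, adjusted p = 0.0306). Its ribosome-bound level was 47.8, 56.2 and 50.4 CPM in NPC, against 126, 54.2 and 114 CPM in ESC (-0.94 ± 0.28 SE, adjusted p = 0.0117). RIBO_ESC replicate 2 lay inside the NPC range, the RNA fall was -0.26 without RNA_ESC replicate 3, and both calls were lost without some single libraries: in RNA without RNA_ESC replicate 1 or any NPC library (adjusted p between 0.0533 and 0.112), and in ribosome-bound RNA without RIBO_NPC replicate 1 or 3 (adjusted p = 0.0559 and 0.0551). NUP50, a cofactor that helps importin alpha release its cargo, had 110, 109 and 118 CPM of RNA in NPC and 121, 123 and 154 CPM in ESC (-0.24 ± 0.12 SE, adjusted p = 0.121). The ribosome-bound values were 25.5, 23.0 and 14.4 CPM in NPC, against 39.6, 28.2 and 30.8 CPM in ESC (-0.66 ± 0.26 SE, adjusted p = 0.0405). The NUP50 groups did not overlap in ribosome-bound RNA, but without RIBO_NPC replicate 3 the log2 fold change was -0.42 (adjusted p = 0.212), and the call was also lost without RIBO_ESC replicate 1 or 3 or RIBO_NPC replicate 2 (adjusted p between 0.0625 and 0.134).

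The membrane nucleoporin NUP210 did not pass in either assay. Its RNA was 200, 186 and 175 CPM in NPC and 223, 234 and 130 CPM in ESC (log2 fold change -0.07 ± 0.21 SE, adjusted p = 0.807). In the ribosome-bound libraries it had 189, 144 and 172 CPM in NPC and 154, 261 and 170 CPM in ESC (-0.21 ± 0.24 SE, adjusted p = 0.452). The groups overlapped in both assays, and without RNA_ESC replicate 3 the RNA of NUP210 was lower by 0.29 log2 units and passed. NUP210L was at or under 0.263 CPM in every RNA library and was not tested. NUP62CL, a gene related to NUP62, was lower in RNA by 0.63 log2 units (adjusted p = 0.0276) at 2.97 to 3.86 CPM in NPC and 4.39 to 6.54 CPM in ESC. That call was lost without RNA_ESC replicate 1 or RNA_NPC replicate 1 or 3 (adjusted p between 0.0502 and 0.106).

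Importin alphas moved apart from one another. Of 6 tested, KPNA5 was higher and KPNA2 and KPNA3 lower in RNA (16.7% and 33.3%, where the background was 26.4% and 26.2%). In ribosome-bound RNA, KPNA4 and KPNA5 were higher and KPNA2 lower (33.3% and 16.7%, where the background was 31.6% and 30.3%). KPNA2, the importin alpha that in mouse embryonic stem cells imports the pluripotency factor POU5F1, had 624, 617 and 623 CPM of RNA in NPC, against 828, 742 and 845 CPM in ESC (log2 fold change -0.37 ± 0.09 SE, adjusted p = 0.00698). Ribosome-bound levels were 117, 196 and 154 CPM in NPC, against 532, 157 and 494 CPM in ESC (-1.34 ± 0.38 SE, adjusted p = 0.0096). The RNA groups were apart. In ribosome-bound RNA, RIBO_ESC replicate 2 lay among the NPC libraries, the log2 fold change was -1.73 without it, and the adjusted p was 0.0551 without RIBO_NPC replicate 1.

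KPNA5 (chromosome 6, 116681211 to 116741867), of the subfamily that also holds KPNA1 and KPNA6, had 17.7, 18.0 and 18.6 CPM of RNA in NPC, against 10.5, 10.5 and 14.8 CPM in ESC (log2 fold change 0.60 ± 0.17 SE, adjusted p = 0.0167). It was the single rise in RNA, and the call was lost when any library other than RNA_ESC replicate 3 was left out (adjusted p between 0.0516 and 0.0968). Its ribosome-bound RNA was 13.6, 13.5 and 22.6 CPM in NPC, against 4.08, 4.77 and 7.28 CPM in ESC, a 3.03-fold higher level (1.60 ± 0.34 SE, adjusted p = 0.00143). NPC libraries were above ESC libraries in both assays, and the ribosome-bound call held in every alternative.

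KPNA3 and KPNA4 form a subfamily of their own. KPNA3 had 63.6, 62.1 and 67.0 CPM of RNA in NPC, against 95.3, 95.1 and 135 CPM in ESC (log2 fold change -0.76 ± 0.15 SE, adjusted p = 0.0038). In ribosome-bound RNA it had 53.2, 53.1 and 52.0 CPM in NPC and 56.9, 40.3 and 61.0 CPM in ESC (-0.01 ± 0.20 SE, adjusted p = 0.981). The RNA groups were apart and the ribosome-bound groups overlapped. KPNA4 had 127, 134 and 150 CPM of RNA in NPC and 134, 126 and 204 CPM in ESC (-0.17 ± 0.18 SE, adjusted p = 0.465). The ribosome-bound values were 93.6, 91.0 and 86.8 CPM in NPC, against 73.2, 52.9 and 67.4 CPM in ESC (0.48 ± 0.19 SE, adjusted p = 0.0447). The KPNA4 groups did not overlap in ribosome-bound RNA, but 10 of 13 alternatives lost the call (adjusted p between 0.055 and 0.13).

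KPNA1 had 105, 108 and 110 CPM of RNA in NPC and 98.1, 91.0 and 130 CPM in ESC (log2 fold change 0.02 ± 0.14 SE, adjusted p = 0.925). In the ribosome-bound libraries it had 32.3, 50.0 and 42.8 CPM in NPC and 62.8, 42.1 and 54.2 CPM in ESC (-0.35 ± 0.23 SE, adjusted p = 0.201). Both pairs of groups overlapped. Without RNA_ESC replicate 3 the RNA of KPNA1 was higher by 0.19, and without RIBO_ESC replicate 2 its ribosome-bound RNA was lower by 0.50 log2 units, and both passed. KPNA6 did not pass in either assay (-0.18 in RNA and -0.41 in ribosome-bound RNA), though its ribosome-bound RNA was -0.72 and passed without RIBO_ESC replicate 2 (adjusted p = 4.17e-05). KPNA7, known as an importin alpha of the egg and early embryo, had 4, 8 and 2 RNA counts in NPC and 0 in each ESC library, too few for a test, and 0 counts allow up to 0.154 CPM in the shallowest RNA library.

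In the importin beta family, IPO7 and IPO8 fell in RNA and rose in ribosome-bound RNA. These 2 closely related importins carry ribosomal proteins, histones and SMAD proteins, among other cargo. IPO7 (chromosome 11, 9384652 to 9448127) had 276, 273 and 304 CPM of RNA in NPC, against 342, 333 and 487 CPM in ESC (log2 fold change -0.45 ± 0.15 SE, adjusted p = 0.039). Ribosome-bound levels were 274, 249 and 214 CPM in NPC, against 164, 105 and 137 CPM in ESC, a 1.81-fold higher level (0.86 ± 0.22 SE, adjusted p = 0.00482). The groups were apart in both assays, in opposite order. The RNA fall was -0.25 without RNA_ESC replicate 3, and its call was lost without any 1 NPC library (adjusted p between 0.0736 and 0.128) and with library totals or upper-quartile scaling (adjusted p = 0.0842 and 0.0666).

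IPO8 (chromosome 12, 30628988 to 30695869) had 54.4, 57.7 and 60.9 CPM of RNA in NPC, against 87.5, 88.6 and 126 CPM in ESC (log2 fold change -0.80 ± 0.16 SE, adjusted p = 0.00329). Its ribosome-bound RNA was 121, 109 and 97.3 CPM in NPC, against 65.4, 64.2 and 74.7 CPM in ESC (0.68 ± 0.19 SE, adjusted p = 0.00766). As with IPO7, the groups were apart in both assays in opposite order, and for IPO8 both calls held in every alternative.

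IPO11, an importer of ubiquitin-conjugating enzymes, went the other way. Its RNA did not pass (-0.30, adjusted p = 0.0647), at 70.7 to 78.4 CPM in NPC and 81.9 to 103 CPM in ESC, but passed without RNA_ESC replicate 3 (-0.19, adjusted p = 0.0112), without RNA_ESC replicate 2 (-0.40, adjusted p = 0.0448) and with the replicate block (adjusted p = 0.0488). Its ribosome-bound level was 28.4, 32.9 and 28.9 CPM in NPC, against 98.7, 65.5 and 85.5 CPM in ESC (log2 fold change -1.47 ± 0.21 SE, adjusted p = 9.68e-05). No NPC library came near an ESC library. TNPO3, the importer of SR splicing factors, was lower in RNA by 0.40 and in ribosome-bound RNA by 1.00 log2 units (adjusted p = 0.00556 and 0.000844). IPO9, an importer of histones H2A and H2B, was lower in ribosome-bound RNA by 0.73 log2 units (adjusted p = 0.00446).

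KPNB1, the importin beta that works with importin alpha, had 477, 495 and 543 CPM of RNA in NPC and 491, 487 and 612 CPM in ESC (log2 fold change -0.07 ± 0.12 SE, adjusted p = 0.64). In ribosome-bound RNA it had 453, 497 and 438 CPM in NPC and 563, 285 and 520 CPM in ESC (0.02 ± 0.26 SE, adjusted p = 0.954). The groups overlapped in both assays. IPO5, IPO13, TNPO1 and TNPO2 did not pass in either assay, with log2 fold changes between -0.34 and 0.10 in RNA and between -0.56 and 0.42 in ribosome-bound RNA. All 4 passed in RNA without RNA_ESC replicate 3: IPO13 at -0.58 (adjusted p = 4.06e-09), TNPO2 at -0.19 (0.00691), TNPO1 at -0.14 (0.0453) and IPO5 at 0.26 (0.000547). IPO13 also passed in ribosome-bound RNA without RIBO_ESC replicate 2 (-0.68, adjusted p = 0.0329). The pseudogene IPO5P1 held 4.47% as many RNA counts as IPO5. IPO4 had 0.818 to 1.33 CPM in the RNA libraries, did not pass in RNA and was too low for a test in ribosome-bound RNA.

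No exportin was higher in NPC, and 4 of 7 were lower in RNA (XPO4, XPO6, XPO7 and XPOT, 57.1% against a background of 26.2%). In ribosome-bound RNA 2 were lower (CSE1L and XPOT), a share of 28.6% near the background of 30.3%. XPOT, the exporter of tRNA, had 148, 149 and 162 CPM of RNA in NPC, against 255, 231 and 366 CPM in ESC (log2 fold change -0.89 ± 0.17 SE, adjusted p = 0.00283). The ribosome-bound values were 12.6, 13.2 and 12.5 CPM in NPC, against 27.3, 37.7 and 24.6 CPM in ESC, a level 2.32-fold lower (-1.21 ± 0.24 SE, adjusted p = 0.000908). The groups were apart in both assays.

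CSE1L returns importin alpha to the cytoplasm. Its RNA was 215, 219 and 258 CPM in NPC and 271, 266 and 384 CPM in ESC (log2 fold change -0.41 ± 0.16 SE, adjusted p = 0.0595). In the ribosome-bound libraries it had 189, 255 and 214 CPM in NPC, against 530, 309 and 461 CPM in ESC (-0.98 ± 0.24 SE, adjusted p = 0.00396). All NPC libraries lay below all ESC libraries in both assays, although only the ribosome-bound difference passed. Without RNA_ESC replicate 3 the RNA of CSE1L was lower by 0.22 log2 units and passed, as it did without RNA_ESC replicate 2 (-0.54, adjusted p = 0.0383), with no filter and with the replicate block (adjusted p = 0.0191 and 0.0129). XPO1, the exporter of proteins with a leucine-rich export signal, had 449, 456 and 475 CPM of RNA in NPC and 374, 352 and 541 CPM in ESC (0.12 ± 0.16 SE, adjusted p = 0.547). Ribosome-bound levels were 177, 214 and 175 CPM in NPC and 270, 154 and 255 CPM in ESC (-0.26 ± 0.24 SE, adjusted p = 0.352). Both XPO1 comparisons rest on the ESC library that stands apart: without RNA_ESC replicate 3 its RNA was higher by 0.34, and without RIBO_ESC replicate 2 its ribosome-bound RNA was lower by 0.49 log2 units, and both passed. XPO4, XPO6 and XPO7, known for eIF5A, actin and a broad range of cargo, were lower in RNA by 0.61, 0.53 and 0.43 log2 units, and XPO5, the exporter of microRNA precursors, did not pass in either assay (-0.10 and -0.25). Without RIBO_ESC replicate 2, ribosome-bound XPO5 was -0.54 (adjusted p = 0.000937) and XPO4 -0.52 (adjusted p = 0.0061), and both passed.

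Across the 46 members tested in both assays, the log2 fold changes of RNA and ribosome-bound RNA had Pearson r = 0.41 and Spearman rho = 0.33, against 0.73 and 0.60 over all 11866 genes. These are descriptions across genes, which share their libraries and are not independent. Of these 46, 4 members were lower in RNA, in ribosome-bound RNA and in the ratio of the 2 (NUP37, NUP88, TNPO3 and NUP155), and 13 passed in none of the 3 comparisons. The shares of such combinations over all genes were not computed, so no result is read from these counts.

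**Figure D3:**
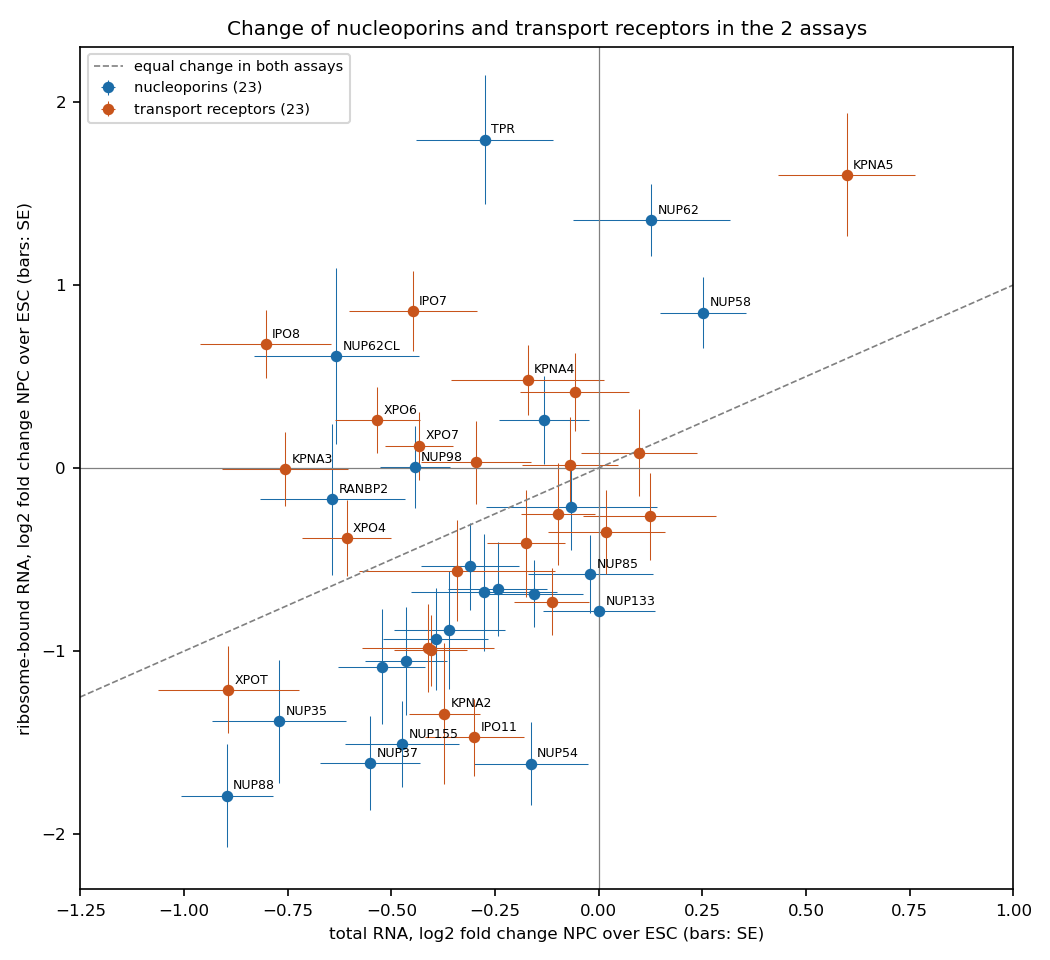
Each point is a member tested in both assays (46), with the log2 fold change of NPC over ESC in RNA on the x axis and in ribosome-bound RNA on the y axis; bars are standard errors, colour tells nucleoporins (23) from transport receptors (23), names are given for part of the members, and the dashed line marks equal changes. The axes differ in scale. RNA changes lie between -0.90 and 0.60 and ribosome-bound changes between -1.79 and 1.79, with TPR, NUP62, IPO7 and IPO8 above the dashed line and NUP54, IPO11, NUP37 and NUP155 below it.

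Translational efficiency is the level of a gene in ribosome-bound RNA divided by its level in total RNA, and its change was tested with an interaction term (assay by state) in a fit of all 12 libraries. Of 46 members, 6 had a higher ratio in NPC (13.0%, against a background of 22.9% of 11866 genes) and 7 a lower one (15.2%, against a background of 19.0%), where 41.9% of all genes passed in either direction. The median log2 change was -0.28, against -0.05 over all genes tested. It was -0.57 for the 23 nucleoporins, and -0.05 for the 23 receptors. The number with a lower ratio was 19 without RIBO_ESC replicate 2 (background 19.9%), 13 without RNA_ESC replicate 3 (background 23.9%), 4 without RNA_NPC replicate 3 (background 14.9%) and 11 by DESeq2 (background 24.1%). Without both ESC libraries that stand apart it was 26, and 8 were then higher, where the background was 29.3% lower and 29.5% higher.

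Of the 46 members tested, TPR had the highest ratio in NPC and the largest rise. Taken between libraries of the same number, which names the libraries and does not pair them, its ratio was 7.34, 7.36 and 7.26 in NPC, against 3.05, 0.997 and 1.40 in ESC (log2 change 2.03 ± 0.42 SE, adjusted p = 0.00139). The change was 1.45 without RNA_ESC replicate 3 and RIBO_ESC replicate 2. The NPC ratios were nearly equal, and the ESC ratios were uneven and all lower.

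IPO8 had a ratio of 2.58, 2.17 and 1.82 in NPC, against 0.902, 0.890 and 0.675 in ESC (log2 change 1.44 ± 0.26 SE, adjusted p = 0.000415). IPO7 had 1.15, 1.05 and 0.804 in NPC, against 0.578, 0.387 and 0.319 in ESC (1.26 ± 0.29 SE, adjusted p = 0.00256). NUP62 had 1.51, 1.33 and 1.62 in NPC, against 0.700, 0.523 and 0.808 in ESC (1.17 ± 0.26 SE, adjusted p = 0.00236). All 3 genes had every NPC ratio above every ESC ratio and kept their call in every other setting and without any 1 library. XPO6 was higher by 0.74 (adjusted p = 0.00849, and 0.0964 with no filter on low counts). KPNA3 was higher by 0.71 (adjusted p = 0.0444), a call that 14 of 20 alternatives lost, and the change was 0.33 without both ESC libraries that stand apart.

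NUP54 had the largest fall, with a ratio of 0.801, 0.886 and 0.612 in NPC, against 2.97, 1.79 and 1.85 in ESC (log2 change -1.50 ± 0.28 SE, adjusted p = 0.000606). IPO11 had 0.466, 0.531 and 0.421 in NPC, against 1.38, 0.983 and 0.945 in ESC (-1.22 ± 0.25 SE, adjusted p = 0.00125). These groups were apart, as were those of the next 2. NUP37 had 1.04, 1.20 and 1.36 in NPC, against 3.41, 1.80 and 2.61 in ESC (-1.10 ± 0.30 SE, adjusted p = 0.00795). NUP155 had 0.338, 0.363 and 0.301 in NPC, against 0.903, 0.596 and 0.614 in ESC (-1.08 ± 0.29 SE, adjusted p = 0.00845). All 4 calls held in every other setting and without any 1 library. NUP88, TNPO3 and IPO9 were lower by 0.94, 0.64 and 0.67, and these calls were lost in some alternatives: for NUP88 without any single library other than RIBO_ESC replicate 2, RNA_ESC replicate 3, RIBO_NPC replicate 2 or RIBO_NPC replicate 3 (adjusted p between 0.0516 and 0.088), for TNPO3 without RIBO_NPC replicate 1 or 3, RNA_ESC replicate 1 or 2 or RNA_NPC replicate 2 or 3 (0.0569 to 0.0745) and with no filter (0.123), and for IPO9 without RNA_NPC replicate 3 (0.0504) and with no filter (0.102).

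**Figure D4:**
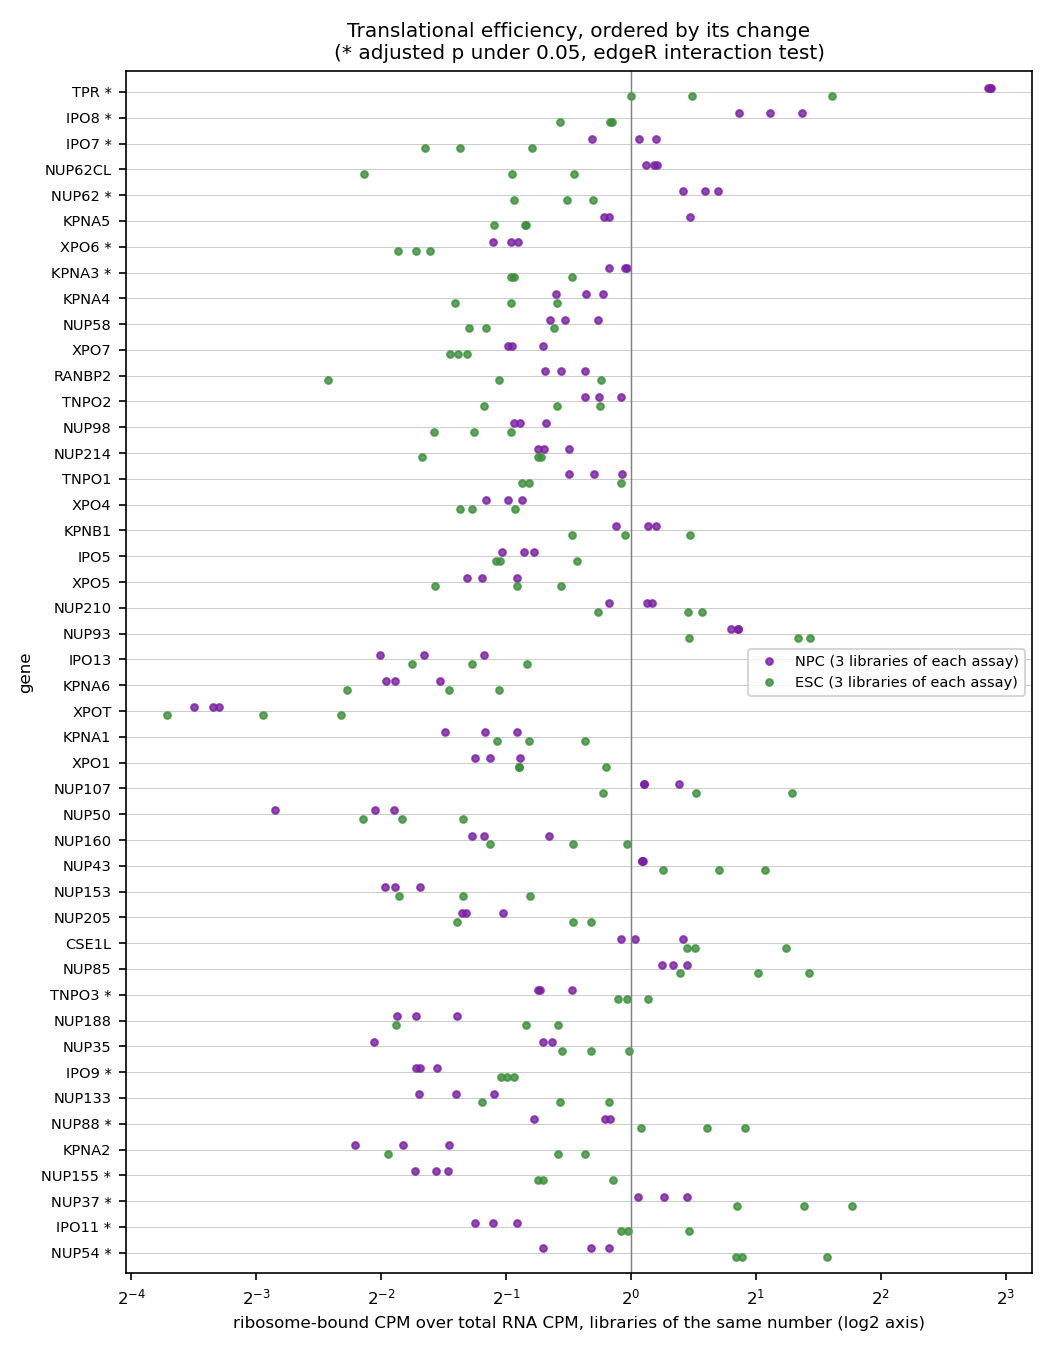
Ratio of ribosome-bound to total RNA (log axis) for each of 46 members, ordered by the change, with NPC points above ESC points in each row; points are the ratios of libraries of the same number, and a star marks an adjusted p under 0.05. TPR reaches 7.26 to 7.36 in NPC against 0.997 to 3.05 in ESC, XPOT is lowest in both states, and the points of NUP54 fall to 0.612 to 0.886 in NPC, against 1.79 to 2.97 in ESC.

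Among the 46 members tested, the order by ratio also differed between the states. In NPC, TPR, IPO8 and NUP93 led, with ratios of means of 7.32, 2.17 and 1.79. In ESC, NUP37, NUP93 and NUP54 came first with 2.59, 2.17 and 2.15, and their libraries overlapped. XPOT was last in both states, at 0.096 in NPC and 0.125 in ESC. Members whose ratio did not pass included KPNB1 (log2 change 0.05, adjusted p = 0.918), XPO1 (-0.43, adjusted p = 0.282), CSE1L (-0.61, adjusted p = 0.12), KPNA2 (-1.01, adjusted p = 0.0772), NUP133 (-0.83, adjusted p = 0.0793) and KPNA5 (0.97, adjusted p = 0.0552). Without both ESC libraries that stand apart, KPNB1 changed sign and passed, at -0.35 (adjusted p = 0.0363), and XPO1 (-0.89, adjusted p = 3.13e-06), CSE1L (-1.03, adjusted p = 1.05e-06), KPNA2 (-1.46, adjusted p = 1.35e-08) and NUP133 (-1.29, adjusted p = 3.74e-08) passed as well. The ratio of KPNA5 passed with the replicate block and without RIBO_ESC replicate 3, RIBO_NPC replicate 1 or RNA_ESC replicate 2 (adjusted p between 0.0311 and 0.049).

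Other genes of nuclear transport, 47 in the table, were examined beside the members. In RNA 5 were higher and 12 lower of 47 (10.6% and 25.5%, where the background was 26.4% and 26.2%). In ribosome-bound RNA 8 were higher and 18 lower of 44 (18.2% and 40.9%, where the background was 31.6% and 30.3%). In the ratio 4 were higher and 14 lower of 44 (9.09% and 31.8%, where the background was 22.9% and 19.0%). Without RNA_ESC replicate 3, 9 were higher and 23 lower in RNA, where the background was 34.9% and 34.7%. Of 7 genes of the RAN cycle, 3 were lower in RNA (42.9%, against a background of 26.2%) and none higher. RAN itself had 726, 736 and 713 CPM of RNA in NPC, against 1180, 1210 and 1422 CPM in ESC (log2 fold change -0.81 ± 0.10 SE, adjusted p = 0.000242). Its ribosome-bound RNA was 521, 566 and 561 CPM in NPC, against 1428, 1485 and 1468 CPM in ESC (-1.41 ± 0.21 SE, adjusted p = 0.00013). The RAN groups were far apart in both assays.

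RCC1, the chromatin-bound exchange factor that loads RAN with GTP, had 103, 107 and 103 CPM of RNA in NPC, against 179, 187 and 147 CPM in ESC (log2 fold change -0.71 ± 0.11 SE, adjusted p = 0.00116). Its ribosome-bound level was 21.6, 21.6 and 25.1 CPM in NPC, against 116, 65.5 and 133 CPM in ESC, a level 4.60-fold lower (-2.20 ± 0.27 SE, adjusted p = 2.82e-05). No libraries overlapped. RANBP1, which helps the hydrolysis of GTP on RAN, was lower in RNA by 0.77 log2 units (adjusted p = 0.000482) and did not pass in ribosome-bound RNA (0.16, adjusted p = 0.475). RANGAP1, the GTPase activator, did not pass in RNA (0.06, adjusted p = 0.844) or ribosome-bound RNA (0.08, adjusted p = 0.819), and without RNA_ESC replicate 3 its RNA was lower by 0.19 log2 units and passed. NUTF2, which brings RAN back into the nucleus, was lower in ribosome-bound RNA by 0.95 log2 units (adjusted p = 0.00755) and did not pass in RNA (-0.07, adjusted p = 0.77, though lower by 0.27 and past the test without RNA_ESC replicate 3). The ratio fell for RCC1 (log2 change -1.54, adjusted p = 0.000707), NUTF2 (-0.94, adjusted p = 0.0294) and RAN (-0.65, adjusted p = 0.0319), and rose for RANBP1 (0.88, adjusted p = 0.00429). The calls of RAN and NUTF2 were lost in 8 and 5 of 20 alternatives.

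Genes of mRNA export and of the nuclear envelope were among the other partners with large changes. SUN1 and SUN2, inner membrane proteins that link the nucleus to the cytoskeleton, were higher in RNA by 0.95 and 1.20 log2 units (adjusted p = 6.33e-05 and 0.00898). In ribosome-bound RNA they were higher by 0.98 and 1.59 (adjusted p = 0.00125 and 0.000275). ENY2, a small subunit shared by the SAGA and TREX-2 complexes, had 125, 136 and 115 CPM of ribosome-bound RNA in NPC, against 863, 1407 and 937 CPM in ESC, a level 8.54-fold lower (-3.09 ± 0.26 SE, adjusted p = 1.98e-06). Its RNA was lower by 0.81 log2 units (adjusted p = 0.00112). The ratio of ENY2 was 11.1, 13.0 and 10.1 in NPC, against 51.1, 78.5 and 44.1 in ESC (log2 change -2.33 ± 0.28 SE, adjusted p = 1.38e-05). Among the partners tested it was the highest in both states, and the reason was not tested. MCM3AP, the scaffold of TREX-2, did not pass in RNA (-0.04, adjusted p = 0.706) and was higher in ribosome-bound RNA by 1.70 log2 units (adjusted p = 0.000123). This pair of TREX-2 subunits stood on opposite sides in ribosome-bound RNA. Of the THO complex, THOC2 was higher by 1.51 (adjusted p = 0.000507) and THOC6 lower by 1.79 log2 units (adjusted p = 3.11e-05) in ribosome-bound RNA, with no call in RNA for either (THOC6 was lower by 0.39 and passed without RNA_ESC replicate 3). DDX39A, an export helicase, was lower by 1.20 in RNA and 1.47 in ribosome-bound RNA (adjusted p = 0.000737 and 4.71e-05).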

How the data were processed

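The deposited table holds raw counts, whole numbers of reads per gene symbol that the authors had not normalized, with a column for each of 12 libraries. Per the submitters' processing notes, the tools were STAR 2.7.1a, featureCounts 1.6.4, Bowtie 1.2 and cutadapt 1.18 and the builds hg38 and GRCh38. How each tool was set, whether strand was used, how reads with several matches were treated and how ribosome-bound RNA was isolated is not given in the sources. A count of 0 allows up to 3 counts, which is 0.0854 to 0.154 CPM in RNA and 0.674 to 1.24 CPM in ribosome-bound RNA (counting error only).

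NPC were tested against ESC with edgeR 4.0.16 in R 4.3.3 (TMM, filterByExpr with a minimum count of 10, quasi-likelihood F test, Benjamini-Hochberg adjustment over all genes tested, threshold 0.05), in a fit per assay, and for translational efficiency as the interaction over 12 libraries. Every adjusted p in the text comes from this tool unless another is named. Standard errors of log2 fold changes were computed as |log2 fold change| / √F. Efficiency ratios used TMM factors over all libraries. The test was also run on simulated counts, and the outcome is not given here. Alternatives were RLE, upper-quartile and total scaling, no filter, DESeq2 1.42.0, limma 3.58.1 (voom), a replicate block and each library left out; leaving out both unusual ESC libraries was added after seeing the data. Spans and promoters came from RefSeq (GRCh38.p14).

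The members and lists were chosen with earlier results of these data known. Values are given for KPNA1, KPNA2, KPNA3, KPNA4, KPNB1, CSE1L, XPO1, NUP133, NUP153, NUP50, NUP98, NUP210, RANBP2 and TPR, and in each comparison for the 4 members that rose most and the 4 that fell most among those past the threshold whose states did not overlap. Of the partner genes, RAN, RCC1, RANGAP1, RANBP1, NUTF2 and the 2 largest rises and falls were named. SEH1L, SEC13 and AHCTF1 were added after values were seen. Other members are given with their call, and full values outside this rule (NUP58, NUP62CL) were chosen after values were seen. Coding length was not examined, so levels of different genes are not compared. The order of members by ratio is a description, and the part of coding length in it was not tested.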

Additional observations from a re-analysis of the deposited data

How the results depend on the processing

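Leaving out 1 library at a time, the count of members higher in RNA ranged from 0 to 5 and that of members lower from 14 to 29, with 5 and 29 without RNA_ESC replicate 3. The background over all genes tested then ranged from 19.9% to 34.9% higher and from 21% to 34.7% lower. The count higher was 2 with library totals only (NUP58 added) and 2 with no filter on low counts (KPNA7 added), where the background was 28.8% and 15.7%. Transport partners in RNA ranged from 4 to 9 higher and from 8 to 23 lower. In ribosome-bound RNA, 12 to 28 members were lower and 6 to 7 higher, where the background was 24.8% to 33.3% lower and 28% to 34.8% higher. In translational efficiency 4 to 19 members were lower when 1 library was left out (background 14.6% to 23.9%) and 11 by DESeq2 (background 24.1%). The number was 26 without both RNA_ESC replicate 3 and RIBO_ESC replicate 2 (background 29.3%), an alternative chosen after seeing the data. The median log2 fold change of the members stayed below 0 in every alternative run for RNA (-0.41 to -0.22) and for ribosome-bound RNA (-0.61 to -0.30). Changes of sign past the threshold were seen for RANGAP1 in RNA (-0.19 without RNA_ESC replicate 3, and up to 0.20 without RNA_ESC replicate 2, where it did not pass) and KPNB1 in efficiency (-0.35 without both ESC libraries); the cause was not tested.

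Under the other scalings, filters and tools, the block and each left-out library, calls held throughout for 14 of 19 falls and 0 of 1 rises in RNA, 11 of 19 falls and 6 of 7 rises in ribosome-bound RNA, and 4 of 7 falls and 4 of 6 rises in efficiency. The share of calls that held over all genes is not given here, so these counts do not set the members apart from other genes. With the replicate block, 1 member was higher and 23 lower in RNA, where the background was 27.4% and 26.7%. The counts were 6 and 15 in ribosome-bound RNA (background 29.2% and 26%), and 7 and 7 in efficiency (background 22.2% and 18.2%). Libraries of the same number did not deviate together throughout (r between NPC and ESC 0.109, 0.094 and 0.267 in RNA, and -0.181, -0.258 and -0.009 in ribosome-bound RNA), so the numbers were not taken as pairs. Total scaling moved the median of all genes in RNA to 0.10, against 0.03 with TMM. Ribosome-bound libraries are shallow, and members near the floor (KPNA7, NUP210L, IPO4) could not be compared there.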
